A study of Homo sapiens with 8 samples.

Results

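This account concerns 9 genes of pericellular proteolysis: the matrix metalloproteinases MMP1, MMP14 and MMP15, the plasminogen activators PLAU and PLAT, the urokinase receptor PLAUR, and the protease inhibitors SERPINE2, TIMP1 and TIMP2. They were taken by gene name from a table of 33221 genes, and all 9 were found and passed the filter on low counts. The samples were 8 RNA-seq libraries of human prostate cancer lines, in 4 groups of 2. PC3 is a line from a bone metastasis. The groups labelled PC3 EphA2 KO and PC3 control received CRISPR/Cas9 lentivirus directed at EPHA2 or carrying a non-targeting guide, and were taken 72 h later. DU145 is a line from a brain metastasis. The groups labelled DU145 EphA2 OE and DU145 control received an EPHA2 expression plasmid or a control plasmid by lipofection, and were taken 48 h later. EPHA2 encodes a receptor tyrosine kinase that binds ephrins on neighbouring cells. The labels name no selection of edited cells and no clone, so the knockout is treated as a population of infected cells. Nor is it stated whether the replicates are separate cultures: the p-values rest on the spread of these libraries alone, and that spread may be technical.

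Matrix metalloproteinases are zinc enzymes, made as inactive precursors, that cut collagens and other matrix proteins. MMP1 is a secreted collagenase, while MMP14 and MMP15 are membrane-anchored enzymes that are activated by furin. The urokinase system runs beside them: urokinase, encoded by PLAU, binds its receptor PLAUR at the cell surface and turns plasminogen into plasmin, which degrades matrix and activates some metalloproteinases. Tissue inhibitors of metalloproteinases block the first family, and serpins such as SERPINE2 block the plasminogen activators. In carcinoma cells these genes are studied for their part in invasion and migration, the behaviour named in the title of the study.

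Gene positions are those deposited with the counts, and the submitters' processing notes name the build GRCh38. MMP1 (ENSG00000196611) lies at chr11:102789919-102798160 on the minus strand, MMP14 (ENSG00000157227) at chr14:22836560-22849027 on the plus strand and MMP15 (ENSG00000102996) at chr16:58025754-58046901 on the plus strand. PLAU (ENSG00000122861) lies at chr10:73909177-73917494, plus, PLAUR (ENSG00000011422) at chr19:43646095-43670169, minus, and PLAT (ENSG00000104368) at chr8:42174718-42207565, minus. SERPINE2 (ENSG00000135919) lies at chr2:223975045-224039290, minus, TIMP1 (ENSG00000102265) at chrX:47582408-47586789, plus, and TIMP2 (ENSG00000035862) at chr17:78852977-78922401, minus.

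Total counts were 57571919 to 60951530 per library. The limit that a count of 0 allows, 3 counts, corresponds to about 0.05 CPM (counts scaled by library total). The CPM of genes below use the total over genes that passed the filter, times a scaling factor per library (TMM). EPHA2 was at 41.7 and 37.7 FPKM (fragments scaled by gene length and library total) in PC3 EphA2 KO against 55.1 and 55.6 in PC3 control. It was at 69.3 and 81.0 FPKM in DU145 EphA2 OE against 58.8 and 58.95 in DU145 control. The log2 fold changes were -0.46 and 0.31. Neither edgeR (adjusted p = 0.415 and 0.458) nor DESeq2 (adjusted p = 0.0523 and 0.344) called them. The first less the second, fitted as 1 contrast, was -0.77. DESeq2 called this contrast, as it did for 1.66% of all genes, and edgeR did not. The terms knockout and overexpression below follow the labels. The table names its control columns differently from the labels: the negative control columns were read as the PC3 control and the vector columns as the DU145 control. This reading is a convention, and an exchange of the controls was run as an alternative. The epithelial markers KRT8, KRT18, EPCAM and CDH1 were present in every library, at a summed 218 to 281 FPKM. CTNNA1, a gene known as deleted in PC3, was at 36.5 FPKM or more in the 4 libraries labelled PC3, so that label went against this marker, and groups are named here by their labels only. The summed markers of fibroblasts (0.449 to 0.722 FPKM) and endothelium (0.0343 to 0.168 FPKM) were low, and the leukocyte sum of 14.1 to 28.2 FPKM came nearly all from CD68. In bulk RNA, fewer cells that express a gene and less RNA per cell cannot be told apart.

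The promoters of MMP14, MMP15, PLAU and PLAUR are shown because MMP14 and MMP15 lay apart from their controls in opposite directions, while PLAU and PLAUR lay on the same side in the knockout. From the RefSeq promoter table (GRCh38.p14), 8 entries were used, belonging to 6 of the 9 genes. Each sequence is the 250 bases before the annotated start, read 5′ to 3′ on the gene's strand, and the last base stands at position -1. This start is that of the promoter entry and can differ from the gene start given above. The MMP14 sequence runs past the MMP14 start given above, and the PLAU sequence lies within the PLAU locus. MMP1, PLAT and TIMP2 are named only. Capitals mark matches on either strand, with no 2 matches overlapping, to the Sp1 motif, whose letters are GGGCGG, and to the AP-1 motif, whose letters are TGANTCA. The ETS motif, with the letters CCGGAA, and the TATA box, with the letters TATAAA, were searched in the same way.
MMP14, chr14:22836335-22836584, plus strand: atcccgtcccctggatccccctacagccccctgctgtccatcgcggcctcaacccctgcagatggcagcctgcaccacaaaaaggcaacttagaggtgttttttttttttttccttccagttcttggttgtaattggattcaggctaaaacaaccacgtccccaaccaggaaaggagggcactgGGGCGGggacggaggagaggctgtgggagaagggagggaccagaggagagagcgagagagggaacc
MMP15, chr16:58025504-58025753, plus strand: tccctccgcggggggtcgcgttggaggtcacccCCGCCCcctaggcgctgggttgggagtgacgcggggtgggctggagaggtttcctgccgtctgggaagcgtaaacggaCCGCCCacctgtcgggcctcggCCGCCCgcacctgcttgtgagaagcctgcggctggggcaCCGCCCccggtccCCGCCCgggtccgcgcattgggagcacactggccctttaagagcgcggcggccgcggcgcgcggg
PLAU, chr10:73910882-73911131, plus strand: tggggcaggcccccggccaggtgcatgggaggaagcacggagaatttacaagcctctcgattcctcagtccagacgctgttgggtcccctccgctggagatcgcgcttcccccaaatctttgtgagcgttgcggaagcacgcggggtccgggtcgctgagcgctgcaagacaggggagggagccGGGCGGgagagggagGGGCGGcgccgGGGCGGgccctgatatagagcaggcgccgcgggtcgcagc
PLAUR, chr19:43670170-43670419, minus strand: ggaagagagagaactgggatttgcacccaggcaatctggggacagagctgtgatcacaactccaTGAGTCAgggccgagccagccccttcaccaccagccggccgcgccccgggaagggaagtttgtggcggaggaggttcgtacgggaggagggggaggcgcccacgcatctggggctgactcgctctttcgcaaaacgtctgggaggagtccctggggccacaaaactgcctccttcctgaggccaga

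MMP14 held 1 GGGCGG, at positions -66 to -61, and MMP15 held 5, the nearest at -65 to -60. The PLAU entry held 3, at -66 to -61, -51 to -46 and -40 to -35, and PLAUR held TGAGTCA, an AP-1 match, at -186 to -180. Of 35116 promoter entries of the same length, 42.6% held GGGCGG, 6.57% held TGANTCA, 14.5% held CCGGAA and 10.7% held TATAAA. The remaining entries (a second start of PLAU, 2 of SERPINE2 and 1 of TIMP1) held GGGCGG or none of the 4 motifs. A match describes letters only.

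The genes covered a wide range of levels. PLAU ranked 28 to 37 by FPKM among all genes of a library, and MMP14 ranked 156 to 244. TIMP1 was at 63.4 to 81.0 FPKM, and PLAUR at 15.5 to 24.1 FPKM. TIMP2 ran from 6.05 to 28.9 FPKM and MMP15 from 2.63 to 6.30 FPKM. SERPINE2 stayed between 2.66 and 3.81 FPKM, and PLAT, the tissue-type activator, between 0.315 and 0.84 FPKM. MMP1 ran from 0.996 to 39.0 FPKM. Of the plasminogen activators, PLAU in FPKM stood 684 to 1873 times above PLAT.

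**Figure D1:**
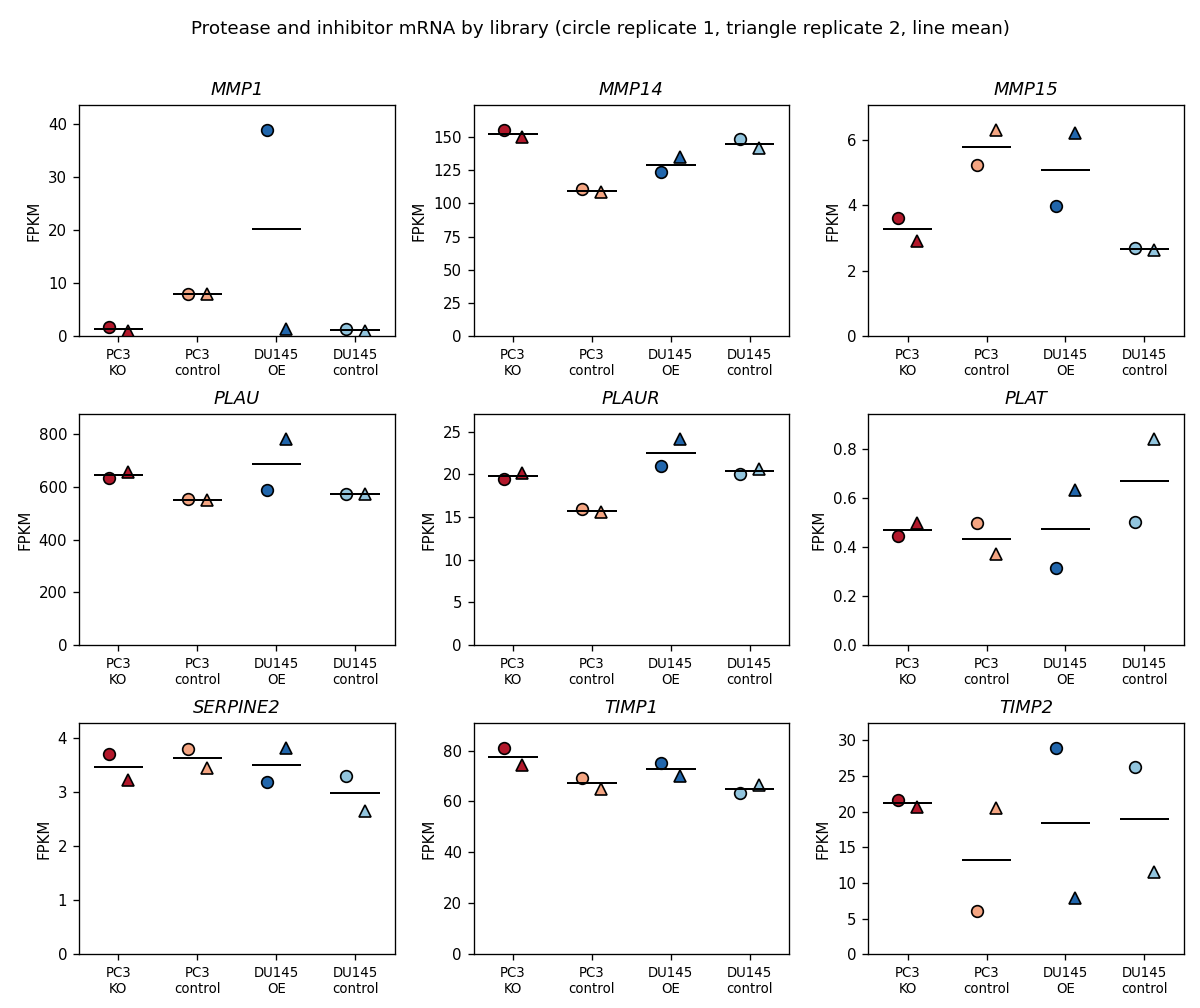
FPKM of the 9 genes in each of the 8 libraries, with circles for replicate 1, triangles for replicate 2 and a line at the mean of the 2; each panel starts at 0. MMP14 and PLAUR are lowest in PC3 control, MMP1 is high in 1 library of DU145 EphA2 OE at 39.0 FPKM, and TIMP2 splits within 3 of the 4 groups.

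Matrix metalloproteinases came first in the comparison of PC3 EphA2 KO with PC3 control. MMP14, which cleaves pericellular collagen and helps to activate MMP2, was at 155.5 and 149.7 FPKM in the knockout libraries and at 110.7 and 108.6 FPKM in the control libraries. The groups did not overlap, and replicates differed little: between them the CPM differed 1.04-fold in the knockout and 1.01-fold in the control. The log2 fold change was 0.50 (SE 0.07), a 1.41-fold difference. It did not pass edgeR's quasi-likelihood test over 22727 genes (adjusted p = 0.171, unadjusted p = 0.000171), while DESeq2 called it (adjusted p = 0.00278). Leaving out each library in turn gave log2 fold changes of 0.47 to 0.52.

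MMP15, the second membrane-type enzyme, lay the other way. It was at 3.61 and 2.91 FPKM in the knockout and at 5.23 and 6.30 FPKM in the control, again without overlap. The log2 fold change was -0.80 (SE 0.22), and neither edgeR (adjusted p = 0.588) nor DESeq2 (adjusted p = 0.0985) called it. Per length MMP14 stood 47.3 ± 5.92 times above MMP15 in the knockout and 19.2 ± 2.79 times in the control (SD, n = 2 each).

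MMP1, the interstitial collagenase, was at 1.62 and 0.996 FPKM in the knockout against 8.02 and 8.02 FPKM in the control. In counts these were 226 and 143 against 1110 and 1092. The log2 fold change was -2.59 with an SE of 1.17 (edgeR adjusted p = 0.756). The estimate of spread is shared by all groups, and the DU145 EphA2 OE libraries differed 29.4-fold in MMP1. When each library was left out in turn, the log2 fold change of MMP1 ran from -2.98 to -2.29. With the 4 PC3 libraries alone its adjusted p was 0.105.

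The urokinase pair lay higher in the knockout without a call. PLAUR was at 19.5 and 20.1 FPKM in the knockout and 15.9 and 15.5 FPKM in the control, a log2 fold change of 0.35 (SE 0.09, edgeR adjusted p = 0.566). PLAU was at 634 and 658 FPKM against 553 and 551 FPKM, a log2 fold change of 0.25 (SE 0.11, edgeR adjusted p = 0.756). For both genes all libraries of the knockout stood above those of the control. PLAU overlaps C10orf55 on the other strand, whose highest count was 1.34% of the lowest PLAU count.

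PLAT was at 0.444 and 0.496 FPKM in the knockout against 0.497 and 0.372 FPKM in the control, so the groups overlapped. Its log2 fold change was 0.15 (SE 0.39, edgeR adjusted p = 0.988). These values rest on 184 to 257 counts per library.

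Among inhibitors, TIMP1, a secreted inhibitor of most metalloproteinases, was at 81.0 and 74.3 FPKM against 69.3 and 64.9 FPKM (log2 fold change 0.23, SE 0.10, edgeR adjusted p = 0.755). SERPINE2, protease nexin-1, which inhibits thrombin and plasminogen activators, was at 3.71 and 3.22 FPKM against 3.79 and 3.45 FPKM (log2 fold change -0.04, SE 0.15, edgeR adjusted p = 0.993). The SERPINE2 groups overlapped and the TIMP1 groups did not. TIMP2, which binds MMP14 at the cell surface, was at 21.7 and 20.6 FPKM in the knockout, while its control libraries stood at 6.05 and 20.5 FPKM. The log2 fold change of 0.69 (SE 0.73, edgeR adjusted p = 0.919) rests on 1 control library, since the second lay next to the knockout.

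The 9 genes were chosen with earlier results of these data known. Shares over all genes therefore stand beside them as description, here and below, and test no enrichment. Of the 9 genes, 0 passed edgeR in the knockout, where 0.0264% of all genes tested did, and DESeq2 called 1, MMP14, against 0.768% of all genes. At an unadjusted p under 0.05 lay 3 of 9 (MMP14 and PLAUR higher, MMP15 lower) against 6.62% of all genes (3.11% higher and 3.51% lower). With the control groups exchanged, MMP14 was at 0.039, MMP15 at 0.26, MMP1 at 0.11 and PLAUR at -0.074, so the directions of the last 3 turned. In 7 of 9 the libraries did not overlap, 5 higher and 2 lower, against 43% of all genes (21.4% higher and 21.6% lower). The median log2 fold change was 0.23 over the 9 and -0.00206 over all genes tested. With 2 libraries against 2, an exact permutation test of a single gene cannot go below p = 0.333.

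In DU145 EphA2 OE against DU145 control, MMP14 and MMP15 again lay in opposite directions, each the reverse of its direction in the knockout. MMP14 was at 124 and 135 FPKM with the EPHA2 plasmid and at 148 and 142 FPKM with the control plasmid. Its log2 fold change was -0.21 (SE 0.07), with an edgeR adjusted p of 0.491 and a DESeq2 adjusted p of 0.552. The groups did not overlap.

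MMP15 was at 3.96 and 6.202 FPKM with the EPHA2 plasmid and at 2.68 and 2.63 FPKM with the control plasmid. All libraries of the first group stood above those of the second, with a log2 fold change of 0.89 (SE 0.22, edgeR adjusted p = 0.433, DESeq2 adjusted p = 0.0287). Replicate 2 lay farther from the control: without it the log2 fold change was 0.56, and without replicate 1 it was 1.15.

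MMP1 was decided by a single library. It was at 39.0 FPKM in DU145 EphA2 OE replicate 1 and at 1.37 FPKM in replicate 2, with 5233 and 185 counts, against 1.34 and 1.03 FPKM in the control libraries. A larger fold between these replicates was seen in 0.176% of all genes tested. The log2 fold change of 4.07 (SE 1.24, edgeR adjusted p = 0.457) became 0.15 without replicate 1 and 5.02 without replicate 2. The neighbouring collagenase and stromelysin genes on chromosome 11 did not share the high level of replicate 1. MMP10 and MMP3 had 0 counts in both overexpression libraries and MMP13 had 12 and 19 counts. On 4 to 42 counts per library, MMP13 lay in the directions of MMP1. Its log2 fold change was 1.33 here (SE 1.04, edgeR adjusted p = 0.745) and -1.32 in the knockout (SE 1.01, edgeR adjusted p = 0.851).

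PLAU was at 590 and 782 FPKM with the EPHA2 plasmid against 571 and 575 FPKM (log2 fold change 0.21, SE 0.11, edgeR adjusted p = 0.616). PLAUR was at 20.9 and 24.1 FPKM against 20.02 and 20.65 FPKM (0.10, SE 0.09, edgeR adjusted p = 0.789). Without DU145 EphA2 OE replicate 1, PLAU had a log2 fold change of 0.38, while without replicate 2 it was 0.023. For both, replicate 2 stood high and replicate 1 close to the controls, and the PLAUR groups overlapped in CPM scaled by TMM though not in FPKM. PLAT was at 0.315 and 0.633 FPKM against 0.50 and 0.84 FPKM, with overlap (-0.55, SE 0.39, edgeR adjusted p = 0.716).

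TIMP1 was at 75.2 and 70.1 FPKM against 63.4 and 66.5 FPKM, a log2 fold change of 0.12 (SE 0.10, edgeR adjusted p = 0.767). SERPINE2 was at 3.19 and 3.81 FPKM against 3.30 and 2.66 FPKM (0.19, SE 0.15, edgeR adjusted p = 0.751). TIMP2 was split in both groups, at 28.9 and 7.88 FPKM with the EPHA2 plasmid and at 26.3 and 11.5 FPKM with the control plasmid (-0.07, SE 0.72, edgeR adjusted p = 0.992). Groups overlapped for SERPINE2 and TIMP2, and for TIMP1 they overlapped in CPM scaled by TMM though not in FPKM.

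In this comparison 0 of the 9 genes passed edgeR, as against 0.0396% of all genes, and DESeq2 called 1, MMP15, against 1.33% of all genes. At an unadjusted p under 0.05 lay MMP1, MMP14 and MMP15, 3 of 9 against 9.06% of all genes (5.01% higher and 4.05% lower). With the control groups exchanged, MMP14 was at 0.25 and MMP15 at -0.18, both turned. Libraries did not overlap in 3 of 9, MMP14, MMP15 and PLAU, against 37.3% of all genes (19.1% higher and 18.2% lower). The median log2 fold change was 0.12 over the 9 and 0.00868 over all genes.

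**Figure D2:**
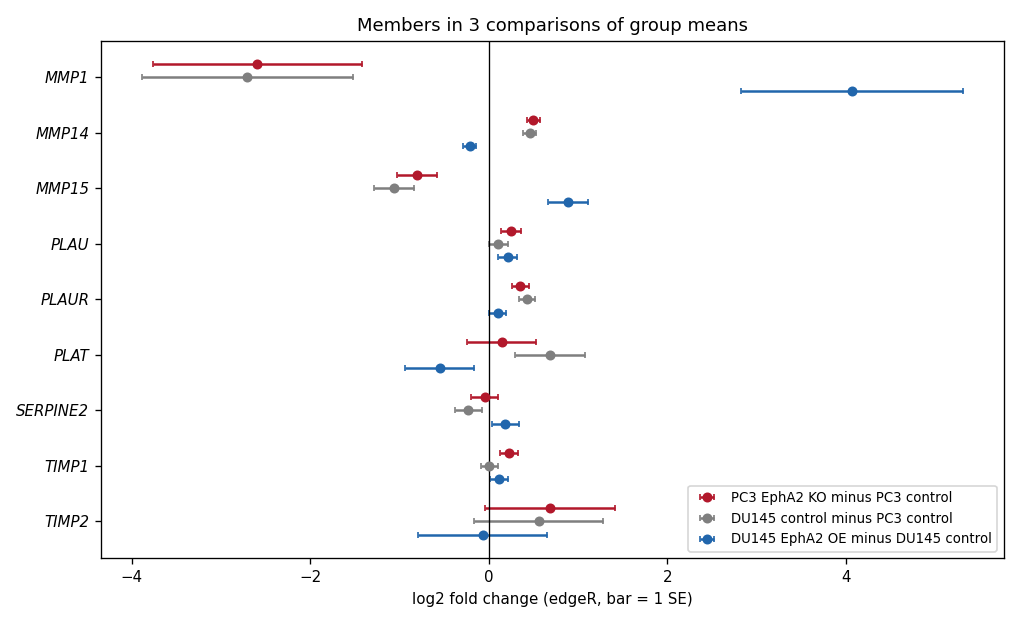
Log2 fold changes of the 9 genes in the knockout, in the overexpression and between the control groups, from edgeR over 8 libraries; bars are 1 SE. MMP14 and MMP15 lie on opposite sides of 0 from each other in all 3 comparisons, and the bars of MMP1 and TIMP2 are the longest.

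The difference of responses, knockout minus control less overexpression minus control, was tested in the same fit. It was 0.71 (SE 0.10) for MMP14 and -1.69 (SE 0.31) for MMP15, with edgeR adjusted p of 0.111 and 0.201 and DESeq2 adjusted p of 0.00144 and 0.0003. For MMP1 it was -6.66 (SE 1.70, edgeR adjusted p = 0.319, DESeq2 adjusted p = 0.0297), and without DU145 EphA2 OE replicate 1 or 2 it was -2.74 or -7.61. With each library left out in turn, the difference ran from 0.68 to 0.75 for MMP14 and from -1.95 to -1.36 for MMP15. PLAU (0.037), PLAUR (0.25), PLAT (0.70), SERPINE2 (-0.23), TIMP1 (0.11) and TIMP2 (0.76) had log2 differences with edgeR adjusted p of 0.562 or more. When each line was set against the other control group, directions turned: MMP14 had a log2 difference of responses of -0.21 and MMP15 of 0.44. Thus 0 of 9 passed edgeR against 0.0308% of all genes, and 3 of 9 passed DESeq2 against 1.66% of all genes. These shares describe genes chosen with earlier results of these data known. At an unadjusted p under 0.05 lay the same 3, MMP14 above 0 and MMP1 and MMP15 below, against 10.1% of all genes (4.36% above 0 and 5.78% below).

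For MMP1, MMP14, MMP15 and PLAUR the values between the control groups lay near those of the knockout comparison. DU145 control minus PC3 control shares the PC3 control libraries with the knockout comparison, so the values stand side by side and are not independent. MMP14 had a log2 difference of 0.46 between the controls and 0.50 in the knockout, and MMP15 had -1.06 and -0.80. MMP1 had -2.71 and -2.59, and PLAUR 0.43 and 0.35. The other genes between the controls stood at 0.11 (PLAU), 0.69 (PLAT), -0.23 (SERPINE2), 0.0080 (TIMP1) and 0.56 (TIMP2). Between the controls 0 of 9 passed edgeR, against 0.0572% of all genes, and DESeq2 called MMP14 and MMP15 (adjusted p = 0.00688 and 0.00236), against 1.3% of all genes. With each library left out in turn, the log2 difference ran from 0.43 to 0.49 for MMP14 and from -2.90 to -2.53 for MMP1. At an unadjusted p under 0.05 lay MMP14 and PLAUR (higher) and MMP15 (lower), against 9.01% of all genes (4.32% higher and 4.69% lower). Libraries did not overlap in 7 of 9, 4 higher and 3 lower, against 43.9% of all genes (21.5% higher and 22.4% lower). By the labels, line, delivery and time after delivery differ together between the control groups and cannot be told apart, and the label of the line is itself in doubt from CTNNA1.

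Ordered by mean FPKM, MMP14 was at 153 ± 4.10 in PC3 EphA2 KO, 145 ± 4.55 in DU145 control, 129 ± 7.65 in DU145 EphA2 OE and 109.6 ± 1.502 in PC3 control (SD, n = 2 each), and no neighbours in this order overlapped. For PLAUR the order was DU145 EphA2 OE (22.5 ± 2.28), DU145 control (20.3 ± 0.451), PC3 EphA2 KO (19.8 ± 0.445) and PC3 control (15.7 ± 0.258); DU145 control and PC3 EphA2 KO overlapped, and the other neighbours did not. PC3 control was therefore the lowest group for MMP14 and PLAUR. It was also the lowest for PLAU, at 552 ± 1.08 FPKM, next to DU145 control at 573 ± 2.46, and neither set of libraries overlapped the other.

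MMP15 ran from PC3 control (5.76 ± 0.758) through DU145 EphA2 OE (5.08 ± 1.58) and PC3 EphA2 KO (3.26 ± 0.494) to DU145 control (2.65 ± 0.0390), with overlap between the first 2 groups only. MMP1 ran from DU145 EphA2 OE (20.2 ± 26.6) to PC3 control (8.02 ± 0.00149), PC3 EphA2 KO (1.31 ± 0.439) and DU145 control (1.18 ± 0.221), and only PC3 control and PC3 EphA2 KO were neighbours without overlap. TIMP1 ranged from 77.6 ± 4.73 in PC3 EphA2 KO to 64.9 ± 2.21 in DU145 control, and SERPINE2 from 3.62 ± 0.242 in PC3 control to 2.98 ± 0.454 in DU145 control. PLAT and TIMP2 neighbours overlapped throughout (SD, n = 2 each, in FPKM).

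TIMP2 stood apart for its spread within groups. Its libraries fell at 20.5 FPKM or more in 5 cases and at 11.5 FPKM or less in 3: PC3 control replicate 1, DU145 EphA2 OE replicate 2 and DU145 control replicate 2. Replicates differed 3.41-fold in PC3 control, 3.80-fold in DU145 EphA2 OE and 2.26-fold in DU145 control, and 1.05-fold in PC3 EphA2 KO. Folds above these were found in 7.63%, 7.3% and 14.8% of all genes in the first 3 groups. The 3 genes that overlap TIMP2 had at most 17 counts. The FPKM ratio of MMP14 to TIMP2 accordingly ran from 4.28 to 18.3 over the 8 libraries, and was 7.22 ± 0.0580 in PC3 EphA2 KO (SD, n = 2).

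Across the 8 libraries, the genes whose log2 CPM followed each member most closely, among 15433 others with a mean CPM of at least 1, are given as a description. All points share the same libraries and groups. MMP14 was followed by AC010761 and ACAD8 (r = 0.99 and 0.97) and MMP15 by CCDC113, PTPN4 and ZNF740 (0.99, 0.98 and 0.98). CCDC113 starts 205 kb from MMP15 on chromosome 16. For MMP1 these were CAVIN2, ZNF449 and KCNS3 (0.99, 0.98 and 0.97), for PLAU LGALS3BP, LENG9 and GRK6 (0.97, 0.97 and 0.96) and for PLAUR WASHC1, LINC02804 and TMEM158 (0.98, 0.97 and 0.96). The closest to PLAT was AP003108 (0.96), to SERPINE2 SLC25A12 (0.98), to TIMP1 APEX2 (0.95) and to TIMP2 FRG1 (0.96).

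The wider families were read from 12 lists holding 118 further genes, of which 106 were in the table. The lists hold the members as well, and counts over a list include them. Over all 22727 genes tested, 11205 had log2 fold changes above 0 in the knockout and 11605 in the overexpression. Of 16 metalloproteinases in the table, 5 had a median of 1 FPKM or more: MMP14, MMP15, MMP17 and MMP24, which are all membrane-type, and MMP1. MMP9, the gelatinase, was at 0.163 to 0.487 FPKM, and MMP3, MMP10 and MMP12 were at 10 counts or fewer in every library. MMP17 was at 2.30 to 3.58 FPKM and MMP24 at 1.62 to 3.75 FPKM. In edgeR 0 of 12 tested metalloproteinases passed in either comparison, with median log2 fold changes of 0.03 in the knockout and 0.04 in the overexpression. MMP16 had the lowest value of the list in both, on at most 12 counts, and MMP25 the highest in the knockout (0.95), on at most 77 counts.

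Further inhibitors were few. RECK, a membrane-anchored inhibitor, was at 2.65 to 3.60 FPKM (log2 fold change -0.28 in the knockout and -0.21 in the overexpression, the lowest of its list in both). TIMP3, TIMP4 and A2M had at most 14, 42 and 19 counts. SERPINB6 led the serpins at 6.11 FPKM on average. SERPINB8 was at 2.21 and 6.24 FPKM in DU145 EphA2 OE against 1.34 and 1.49 FPKM in its control, a log2 fold change of 1.51 (SE 0.42, edgeR adjusted p = 0.447, DESeq2 adjusted p = 0.0103). SERPINA5, the lowest of that list in the overexpression, and SERPINF2, the highest in the knockout, had at most 30 and 60 counts. Of 7 serpins 0 passed edgeR in either comparison.

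**Figure D3:**
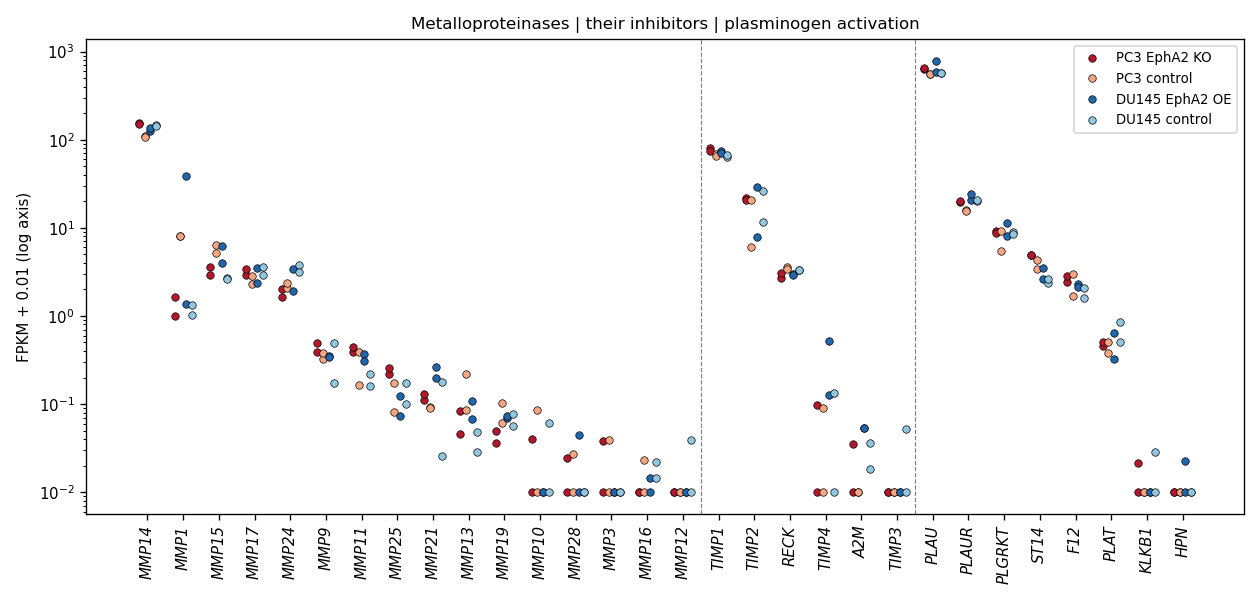
FPKM plus 0.01 on a log axis for metalloproteinases, their inhibitors and genes of plasminogen activation; each point is 1 library, coloured by group, and genes are sorted by mean within each block. MMP14, TIMP1 and PLAU lead their blocks, and MMP9 is at 0.487 FPKM or less in all libraries.

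On the surface side of the urokinase system, the 6 tested genes of plasminogen activation are the members PLAU, PLAUR and PLAT with PLGRKT, F12 and ST14. PLGRKT, a plasminogen receptor, had log2 fold changes of 0.30 in the knockout and 0.09 in the overexpression, and F12, coagulation factor XII, had 0.20 and 0.23. Of the 6, 0 passed edgeR in either comparison, and the median was 0.27 in the knockout and 0.16 in the overexpression. ST14, matriptase, which activates urokinase, was the highest in both (0.38 and 0.25). Plasminogen receptors covered a wide range, from S100A10 at 388 to 586 FPKM and ENO1 at 415 to 488 FPKM to H2BC21 at 8.16 to 10.0 FPKM. S100A10 was the highest of its list in the knockout (0.20), and 0 of 5 passed in either comparison. LRP1, which clears protease-inhibitor complexes, was at 6.90 and 6.96 FPKM in the knockout against 8.44 and 9.23 FPKM (log2 fold change -0.33, edgeR adjusted p = 0.674). FURIN, the convertase of membrane-type metalloproteinases, was at 21.2 to 24.7 FPKM with log2 fold changes of 0.05 and 0.02.

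In the remaining lists 0 genes passed edgeR in the knockout or the overexpression. ADAM proteases had 8 of 14 above 0 in the knockout (median 0.05) and 5 of 14 in the overexpression (median -0.18), with ADAM12 the lowest in both (-1.02 and -1.13) and ADAM9 the most abundant at 72.9 to 87.3 FPKM. CD44, the hyaluronan receptor that docks MMP14, was the lowest of the matrix substrates and partners in the knockout (-0.52) and the highest in the overexpression (0.56). SPINT1, a Kunitz inhibitor of matriptase, had 0.79 in the overexpression (edgeR adjusted p = 0.433, DESeq2 adjusted p = 0.0287). CTSL led the cathepsins at 208 to 263 FPKM, and CTSD was their lowest in the knockout (-0.49).

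Of 15 AP-1 and ETS factors, which act on promoters of protease genes, 9 had log2 fold changes below 0 in the knockout (median -0.14) and 11 above 0 in the overexpression (median 0.13), beside 11429 of 22727 genes below 0 and 11605 above 0. FOSL1 led them at 62.8 to 99.2 FPKM, with 0.05 in the knockout and 0.04 in the overexpression. FOSL2 was at 6.23 FPKM in DU145 EphA2 OE replicate 1 and at 25.0 FPKM or more in the other 7 libraries. That library is also the one in which MMP1 was high. Whether the 2 are related was not tested.

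Of the further ends of the lists, 0 passed edgeR. CDH1, the E-cadherin gene of the axis in the title, had log2 fold changes of 0.45 in the knockout and -0.43 in the overexpression (edgeR adjusted p = 0.415 and 0.368, DESeq2 adjusted p = 0.0499 and 0.0602), so DESeq2 called it in the knockout. Among plasminogen receptors, H2BC21 was lowest in the knockout (-0.11) and HMGB1 in the overexpression (-0.27). Among clearance receptors, LRPAP1 was highest in the knockout (0.13), and SORL1 and VLDLR were lowest and highest in the overexpression (-0.19 and 0.16). PCSK1N was lowest of the convertases (-0.094 and -0.33). Of the serine proteases and Kunitz inhibitors, PRSS8 was lowest in the knockout (-1.55, on 8 to 71 counts), and SPINT2, at 52.0 FPKM on average, was lowest in the overexpression (0.057).

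CSTA was highest of the cathepsins and cystatins in the knockout (0.69, on 8 to 135 counts), and CTSV and CST6 were lowest and highest in the overexpression (-0.46 and 0.76). FOS was highest of the transcription factors in the knockout (0.30) and ERG lowest in the overexpression (-0.62, on 34 to 81 counts). ETV1 and ADAMTS4, at the other ends of their lists, had at most 23 and 21 counts. LAMB3 was the most abundant matrix substrate, at 225 FPKM on average.

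**Figure D4:**
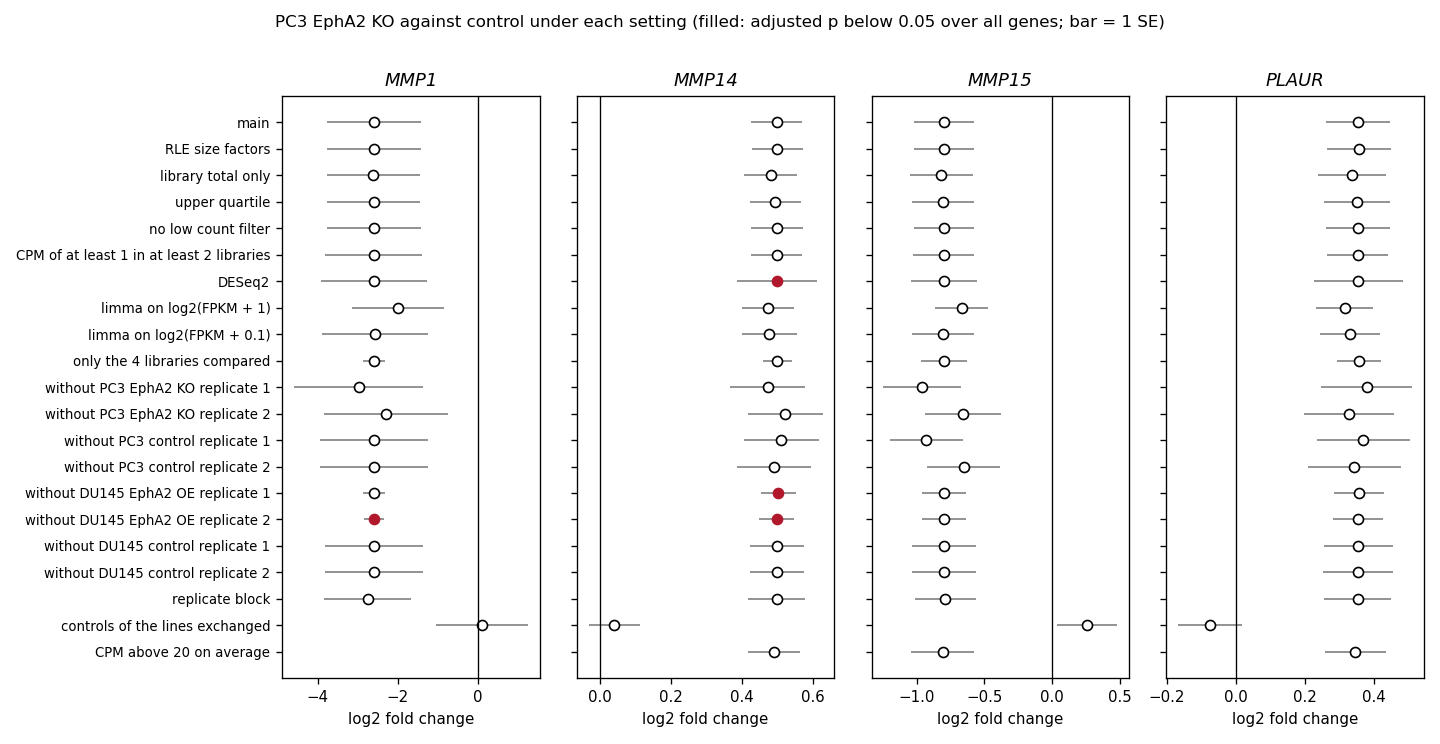
Log2 fold change of MMP1, MMP14, MMP15 and PLAUR between PC3 EphA2 KO and its control under each setting, with 1 SE; filled points passed the threshold over all genes. MMP14 lies between 0.47 and 0.52 in every setting except the exchange of controls, where it is 0.04.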

How the data were processed

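RNA-seq was deposited as a table of 33221 genes with 8 libraries in 4 groups of 2. The authors deposited raw counts per gene and, beside them, FPKM values per gene and library. The submitters' processing notes name HISAT2 2.2.1, edgeR, StringTie 2.1.6, DESeq2, cutadapt 1.9 and the build GRCh38. The roles of these tools, the annotation and any use of strand: not given in the sources used here. All value columns were matched to labels (0 left unmapped); the control columns were read by convention, as described in the report.

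Counts were tested with edgeR 4.0.16 in R 4.3.3 (quasi-likelihood test, TMM scaling, 8 libraries, 4 residual degrees of freedom, 22727 genes with filterByExpr at a minimum count of 10 and total of 15), with Benjamini-Hochberg adjustment over all genes tested and a threshold of 0.05. SEs are the log2 fold change divided by the square root of F. DESeq2 1.42.0, limma 3.58.1 on log2(FPKM + 1) and log2(FPKM + 0.1), other scalings and filters, a replicate block, an exchange of controls and leaving out each library were alternatives; a restriction to genes above 20 CPM on average was chosen after seeing the data. Total counts of 57571919 to 60951530 per library set the depth, and limits from a count of 0 cover counting error only. FPKM are given for levels, since they are per length, and the count tests for differences. The members and the gene lists were chosen with earlier results of these data known. All 9 members are named; so are, for each list, the genes with the lowest and highest log2 fold change in the knockout and the overexpression and the most abundant gene, the 3 most alike genes of each member (the closest alone for PLAT, SERPINE2, TIMP1 and TIMP2), EPHA2 and CDH1. A few genes that this rule names are not reported here. Further genes named were chosen after their values were seen.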

Additional observations from a re-analysis of the deposited data

Results flagged for a closer look

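For MMP14 and MMP15 the altered libraries lay on opposite sides of their controls in the libraries labelled PC3 and in those labelled DU145. In neither set did the groups overlap. Of all genes tested, 43% did not overlap in the knockout and 37.3% in the overexpression. The share of all genes apart in both sets and in opposite directions was not computed. For MMP14 the difference of responses was 0.71 on the log2 scale (SE 0.10), from knockout libraries above PC3 control and overexpression libraries below DU145 control. For MMP15 it was -1.69 (SE 0.31), with knockout libraries below and overexpression libraries above their controls. By edgeR over all genes the differences did not pass (adjusted p = 0.111 and 0.201), and by DESeq2 they did (adjusted p = 0.00144 and 0.0003). Of all genes, edgeR called 0.0308% and DESeq2 1.66% for this difference. The matching of controls to lines is a convention: with the control groups exchanged the differences were -0.21 and 0.44, both turned in direction. No group had enough libraries for a check of single outlying samples.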

How the results depend on the processing

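Of the 9 genes, 0 passed edgeR in each comparison. DESeq2 called 1 in the knockout, 1 in the overexpression, 3 in the difference of responses and 2 between controls, and a fit of the 4 control libraries alone gave 1 (MMP1). Over genes above 20 CPM on average, replicates differed most in DU145 EphA2 OE, by a median absolute log2 difference of 0.19. It was 0.0886 in PC3 EphA2 KO, 0.0967 in PC3 control and 0.118 in DU145 control. The estimate of spread is shared by all groups. Leaving out a library leaves 1 in its group, so such fits are read for log2 fold changes only. The labels do not say that replicate numbers pair libraries, and the correlation of deviations was -0.0165 for the knockout and its control and -0.0231 for the overexpression and its control. Over the other group pairs it ran from -0.0407 to 0.174 (PC3 EphA2 KO with DU145 control), with 0.154 for PC3 control with DU145 EphA2 OE. The numbers were not used as pairs, and with the replicate block 0 of 9 passed in each comparison and 0, 3, 3 and 3 of all genes (knockout, overexpression, difference, controls), against 6, 9, 7 and 13 without it. Over all genes DESeq2 called 166, 296, 370 and 282. The 4 libraries compared alone gave 0 in the overexpression and 20 between controls; no filter gave 4 in the overexpression; a CPM filter gave 18 in the difference. limma gave 12 in the knockout with 0.1 added, and 23 and 25 between controls. Genes above 20 CPM gave 2, 6, 21 and 5. Exchanged controls gave 13 in the knockout and 16 in the difference.

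With controls exchanged, directions reversed in the knockout for MMP1 (0.11), MMP15 (0.26), PLAUR (-0.074), PLAT (-0.54) and SERPINE2 (0.18). In the overexpression they reversed for MMP14 (0.25), MMP15 (-0.18), PLAT (0.14), SERPINE2 (-0.041) and TIMP2 (0.49). In the difference they reversed for MMP14 (-0.21), MMP15 (0.44), PLAU (-0.18), PLAUR (-0.60), PLAT (-0.68), SERPINE2 (0.22) and TIMP2 (-0.36). Near 0, the PLAU difference was -0.033 by library total, -0.018 and -0.018 by limma and -0.0098 above 20 CPM, and TIMP1 between controls was -0.049 by library total, -0.0046 by upper quartile, -0.046 and -0.047 by limma and -0.024 above 20 CPM. Leaving out a library gave ranges across 0 for PLAT (-0.036 to 0.36) and SERPINE2 (-0.15 to 0.052) in the knockout, TIMP2 in the overexpression (-1.33 to 0.64), the PLAU difference (-0.13 to 0.23), and TIMP1 (-0.033 to 0.054) and TIMP2 (-0.14 to 1.70) between controls. The cause was not tested. Exchanging controls was not given between controls, where it only turns the sign. PLAT, the least abundant member, rests on 154 to 423 counts.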

Other observations

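The ratio of PLAU to its receptor PLAUR in FPKM was 32.7 ± 0.111 in PC3 EphA2 KO, 35.2 ± 0.509 in PC3 control, 30.3 ± 2.98 in DU145 EphA2 OE and 28.2 ± 0.504 in DU145 control (SD, n = 2 each). The ratio of PLAU to SERPINE2 ran from 146 to 216 over the 8 libraries, and that of TIMP1 to TIMP2 from 2.41 to 11.5. BSG, which encodes basigin, an inducer of metalloproteinases, was at 119 to 152 FPKM in all 8 libraries.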
